A study of Mus musculus with 12 samples.

Results

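RASSF scaffolds, MST kinases, MOB co-activators and the LATS1 kinase were followed in iNKT1 cells, the T-bet-expressing subset of invariant natural killer T (iNKT) cells, with and without a deletion of the transcription factor gene Ets1. The set comprised 10 mouse genes (Rassf1, Rassf2, Rassf3, Rassf5, Stk4, Stk3, Mob1a, Mob3a, Mob3b and Lats1) of 14004 in the table, found by matching Ensembl identifiers to symbols, and all 10 passed the filter on low values, which 13058 genes passed in all. They were selected on measured values of these libraries, because Rassf2 and Mob3b were low in cells with the deletion. The genotype differences of these 10 genes are therefore given as a description without a test. The liver against thymus comparison is the one tested, since the choice used no difference between tissues. It still averages the cKO libraries whose low values chose Rassf2 and Mob3b, so its p-values for these genes are not independent of the choice.

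As background, RASSF proteins carry a Ras-association domain that binds small GTPases of the Ras and Rap families, and many bind the MST kinases through a SARAH domain. The MST kinases, encoded by Stk4 (MST1) and Stk3 (MST2), are the mammalian counterparts of the Drosophila kinase Hippo, and with MOB1 they activate LATS and NDR kinases. In T cells, MST1 and RAPL, a product of Rassf5, link the GTPase Rap1 to the integrin LFA-1, and mice without MST1 have few naive T cells in the periphery.

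RNA-seq was carried out on sorted primary mouse cells that bound CD1d tetramer, which detects iNKT cells, and carried YFP. In the conditional knockout (cKO, Tbx21Cre Ets1F/F Rosa26-YFP+) both Ets1 alleles were floxed, and in the control (Tbx21Cre Rosa26-YFP+) they were not. Cre under the Tbx21 promoter acts only in cells that have switched on Tbx21, which encodes T-bet, and both genotypes carried this Cre and the reporter. Each of 4 groups (cKO thymus, control thymus, cKO liver, control liver) held 3 libraries, described as independent. The sources used here give no age, sex or strain background and do not say whether each library came from a separate mouse, so the spread behind each p-value is that of these libraries and may be technical. Group values are means ± SD of the deposited library-size-adjusted values (n = 3), and log2 fold changes, cKO over control or liver over thymus, were estimated with limma on log2(value + 1) and are given ± SE. In bulk RNA, fewer cells of a type and less RNA per cell cannot be told apart.

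Reads recovered from the values came to 18.5 M to 43.4 M (M, 1e6 reads) in 10 libraries, with 3.21 M in cKO liver 2 and 3.87 M in control liver 3, and 1 read was worth 0.615 to 6.66 units of value. Control thymus 1 and 2 stood apart with 3528 and 2824 genes without a read, against 966 to 2223 in the other libraries. Ets1 had values of 11817, 7069 and 5788 in cKO thymus and 23692, 28051 and 19493 in control thymus. It had values of 3594, 4425 and 5787 in cKO liver and 18773, 18528 and 15910.2 in control liver, so the cKO libraries lay below the control libraries in both tissues. The values cover the whole Ets1 gene, including any exons that the floxed alleles leave in place. All 10 of 10 markers of T and iNKT1 cells were present, and their summed values ran from 113196 to 162206 over the 12 libraries.

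Some genes listed as markers of other cells moved with genotype. Of 6 endothelial markers, 2 (Pecam1 and Cd93) could be measured, and their sum was 0.923 to 70.6 in cKO thymus, 385 to 896 in control thymus, 1.71 to 95.7 in cKO liver and 2872 to 3590.2 in control liver. The defining endothelial genes Cdh5, Kdr, Stab2 and Tek were not analysed here. Of 7 markers of immature thymocytes, 5 were measured (Cd4, Cd8a, Cd8b1, Rag1 and Dntt). Their sum was 312 to 1304 in cKO thymus and 1769 to 7393 in control thymus. In liver it was 579 to 1999 in cKO cells and 6608 to 9078 in control cells. This sum reached its highest value in control liver. It was not split by gene, so it cannot tell which of the 5 genes, or which cells, it came from. Mmp9, the 1 of 7 neutrophil markers measured, had values of 0 to 1.43 in cKO thymus, 0.0213 to 2.55 in control thymus, 0 to 1.16 in cKO liver and 3033 to 3585 in control liver. B cell, macrophage and hepatocyte sums overlapped between genotypes in each tissue. Whether such cells were present, and their part in the genotype differences below, was not tested.

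Rassf2 (ENSMUSG00000027339, chr2:131989415-132030258, minus strand, GRCm38, protein-coding) encodes a RASSF protein that binds the MST kinases and is often silenced in human tumours. It had values of 1196, 2028 and 862 in cKO thymus, against 2121, 16730.0 and 8253 in control thymus. All 3 cKO thymus libraries lay below the lowest control, cKO thymus 2 by a small margin under control thymus 1. In liver the values were 641, 341 and 366 in cKO cells, against 9430.4, 6369.8 and 4857 in control cells. Here the highest cKO library lay far below the lowest control. Means were 1362 ± 600.3 in cKO thymus and 9035 ± 7336 in control thymus, and 449 ± 167 in cKO liver and 6886 ± 2330 in control liver (SD, n = 3 each). The log2 fold change was -2.38 ± 0.585 in thymus, which is 5.19-fold lower, and -3.94 ± 0.585 in liver, which is 15.4-fold lower. Without control thymus 2, the library with the highest value, the thymus fold change was -1.71, and without control thymus 1, the lowest control, it was -3.20.

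Mob3b (ENSMUSG00000073910, chr4:34949074-35157484, minus strand, GRCm38, protein-coding) encodes a MOB family protein of the MOB3 branch, which unlike MOB1 is not known as an activator of LATS kinases. Its values were 1.03, 0 and 0 in cKO thymus, against 271, 170.0 and 866 in control thymus. That is 1 read in 3 cKO thymus libraries against 1080 reads in the control ones. Taken as shares of each group's summed recovered reads, the ratio of control to cKO was 1255, with a counting interval (95%, exact conditional binomial) of 225 to 49599. In liver it had values of 93.4, 114 and 37.9 in cKO cells, against 130.5, 413 and 944 in control cells, from 213 and 788 reads. The cKO liver libraries lay below the control ones, by a small margin between cKO liver 2 (17 reads) and control liver 1 (150 reads). The liver log2 fold change was -2.31 ± 1.49, or -1.64 without control liver 3 and -3.06 without control liver 1. Of all 13058 tested genes, 3 (Mob3b among them) had no read in cKO thymus 2 and 3 and at least 1 read in each of the 9 libraries of the other groups. That pattern was taken from the Mob3b values themselves, so nothing is read from its rarity. The fitted thymus value of -8.08 ± 1.49 depends on the pseudocount, being -5.10 with a pseudocount of 10, and is no bound on the change. Intervals cover counting error only. The genes Ifnk and Gm12364 lie within the same span on the other strand, and the sources used here do not say whether the counting used strand.

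The sequences just upstream of these genes are shown because Ets1 is a DNA-binding factor whose family recognises a GGAA core. They are the 250 bases before the RefSeq start of each gene (GRCm38.p6), read 5′ to 3′ on the gene's own strand, with GGAA or its reverse complement TTCC in capitals.
Rassf2, chr2:132030325-132030574: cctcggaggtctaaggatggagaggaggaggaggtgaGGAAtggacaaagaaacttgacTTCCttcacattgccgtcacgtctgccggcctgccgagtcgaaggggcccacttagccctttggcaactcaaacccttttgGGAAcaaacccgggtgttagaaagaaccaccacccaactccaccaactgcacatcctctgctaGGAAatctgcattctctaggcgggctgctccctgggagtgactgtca
Mob3b, chr4:35157485-35157734: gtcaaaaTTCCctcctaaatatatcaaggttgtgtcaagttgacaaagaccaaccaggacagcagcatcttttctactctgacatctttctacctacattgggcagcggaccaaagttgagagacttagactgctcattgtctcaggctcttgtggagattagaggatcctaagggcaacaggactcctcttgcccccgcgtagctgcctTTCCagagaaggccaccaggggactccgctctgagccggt
The Rassf2 window holds 4 such cores and the Mob3b window 2. Among all 32851 RefSeq windows of this length, 93.4% hold at least 1 core and the median is 3, with Rassf2 above and Mob3b below it. Of the 10 genes, 8 had a window. The Rassf5 window (chr1:131200186-131200435), the Stk4 window (chr2:164073888-164074137) and the second Rassf1 window (chr9:107554333-107554582) lay inside the annotated span of the gene. The bases before the outermost annotated start of Rassf5 and Stk4 were not searched. Rassf1, which has 2 windows, held 4 and 2 cores, Rassf5 and Mob1a held 5 each, Lats1 held 3, and Stk4 and Mob3a held 2 each. Longer ETS-type words searched on both strands, CCGGAAGT, CAGGAAGT and CAGGAAAT, which contain the core, were found in 2.88%, 2.69% and 1.90% of all windows and in none of the 9 windows of the set. The GC content was 55.2% for Rassf2 and 50.4% for Mob3b, with a median of 52.4% over all windows. A match describes letters in a window and is not a binding site, and no match says only that these letters are not in it.

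**Figure D1:**
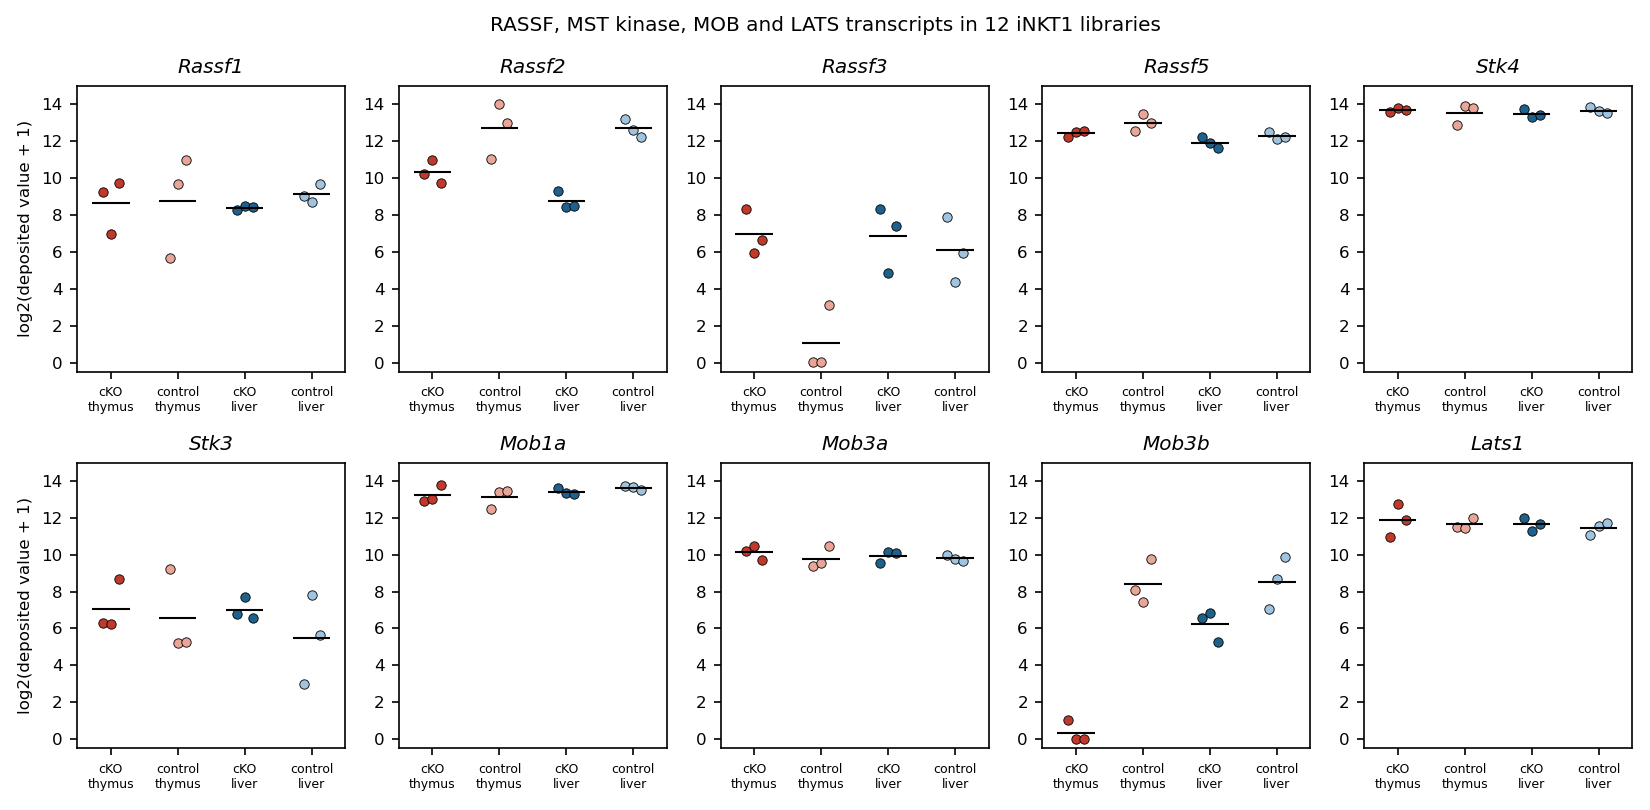
Log2(deposited value + 1) of the 10 genes in the 12 libraries, with 1 panel per gene; points are libraries, and bars are group means of 3. Rassf2 was lower in all cKO libraries than in the controls of the same tissue, Mob3b was at or near 0 in cKO thymus, Rassf3 was at or near 0 in control thymus, and Stk4 and Mob1a were high in every group.

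Among the other RASSF genes, Rassf3 lay the other way in thymus, and Rassf1 and Rassf5 overlapped between genotypes there. Rassf3 (chr10:121410350-121476347, minus strand), a short RASSF protein with a Ras-association and a SARAH domain, had values of 315, 60.7 and 101 in cKO thymus, against 0.0211, 0.0273 and 7.58 in control thymus. Control thymus 1 and 2 had no Rassf3 read and control thymus 3 had 6, so every cKO thymus library lay above every control one. With 509 reads in the cKO thymus libraries, the ratio of read shares, cKO over control, was 73.0 after this adjustment for depth, with a counting interval of 33.3 to 200 (95%). The log2 fold change of 5.92 ± 1.72 was 3.499 with a pseudocount of 10, and 3.87 without the 2 control libraries that stood apart. Those 2 libraries lacked a read for 1241 tested genes, and 132 of these (1.01% of tested genes) had reads in all 9 libraries of the other groups. In liver the Rassf3 values were 322, 27.97 and 171 in cKO cells and 241, 19.7 and 61.5 in control cells, which overlapped (log2 fold change 0.79 ± 1.72).

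Rassf5 (chr1:131176410-131245258, minus strand), the source of RAPL, had values of 4774, 5918 and 6121 in cKO thymus and 6050.2, 11405 and 8112 in control thymus. In liver it had values of 4753, 3805 and 3175 in cKO cells and 5754, 4406 and 4767 in control cells. The groups overlapped in both tissues, with log2 fold changes of -0.56 ± 0.298 in thymus and -0.36 ± 0.298 in liver. Rassf1 (chr9:107551555-107562267, plus strand), a tumour suppressor and scaffold of the MST kinases, had values of 619, 124 and 847 in cKO thymus and 50.5, 807 and 2037 in control thymus, with no separation (log2 fold change -0.12 ± 1.08). The sign of its thymus value rested on single libraries, being 0.99 without control thymus 3 and -1.67 without control thymus 1. In liver Rassf1 had values of 306, 361 and 351 in cKO cells and 517, 424 and 817 in control cells. All 3 cKO libraries lay below the controls there, at a log2 fold change of -0.73 ± 1.08 that was smaller than its standard error.

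Stk4 (chr2:164070322-164155524, plus strand), which encodes MST1, had values of 12470.1, 14571 and 13301 in cKO thymus and 7686, 15207 and 14234 in control thymus. In liver it had values of 13927, 10128 and 11208 in cKO cells and 14828, 12575 and 11883 in control cells. The libraries overlapped in both tissues, and the log2 fold changes of 0.18 ± 0.255 in thymus and -0.16 ± 0.255 in liver were within the standard error. Stk3 (chr15:34875496-35178921, minus strand), the gene for MST2, had values of 78.0, 74.7 and 414 in cKO thymus and 599, 35.9 and 37.7 in control thymus. It had values of 108, 206 and 95.6 in cKO liver and 6.93, 227 and 49.6 in control liver. In each of 3 groups a single library stood well above the other two, and the log2 fold changes of 0.51 ± 1.57 in thymus and 1.52 ± 1.57 in liver were within the standard error. The Stk3 thymus value ran from -0.31 (DESeq2) to 1.84 (without control thymus 1) and was negative in 5 of 22 settings, edgeR (-0.25) and leaving out cKO thymus 3 (-0.29) included, and the liver value ran from 0.27 to 2.69. Both MST kinase genes thus showed no separation of genotypes at this spread.

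Mob1a (chr6:83326016-83343776, plus strand), which encodes the co-activator of LATS and NDR kinases, had values of 7798, 8363 and 13837 in cKO thymus and 5703, 10855 and 11092 in control thymus. In liver it had values of 12536, 10554 and 10072 in cKO cells and 13429.5, 12858 and 11695 in control cells, and the groups overlapped in both tissues (log2 fold changes 0.13 ± 0.282 and -0.20 ± 0.282). Mob3a (chr10:80685253-80701977, minus strand), a close relative of Mob3b, had values of 1183, 1435 and 824 in cKO thymus and 661, 740.1 and 1403 in control thymus. It had values of 761, 1113 and 1087 in cKO liver and 1010.0, 874 and 794 in control liver, so that Mob3a overlapped in the tissues where Mob3b did not (log2 fold changes 0.34 ± 0.520 and 0.13 ± 0.520). Lats1 (chr10:7681214-7716460, plus strand), the kinase that phosphorylates the co-activator YAP, had values of 2024, 6876 and 3750.5 in cKO thymus and 2904, 2803 and 4118 in control thymus. In liver its values were 4107, 2473 and 3288 in cKO cells and 2156, 3026 and 3325 in control cells, again overlapping (log2 fold changes 0.21 ± 0.411 in both tissues). The small positive thymus values turned negative under TMM rescaling for Stk4 (-0.08), Mob1a (-0.13) and Lats1 (-0.05), and for Mob1a also under median-of-ratios rescaling (-0.02). As deposited, the thymus values of all tested genes had a median of 0.24, against 0.003 after TMM.

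**Figure D2:**
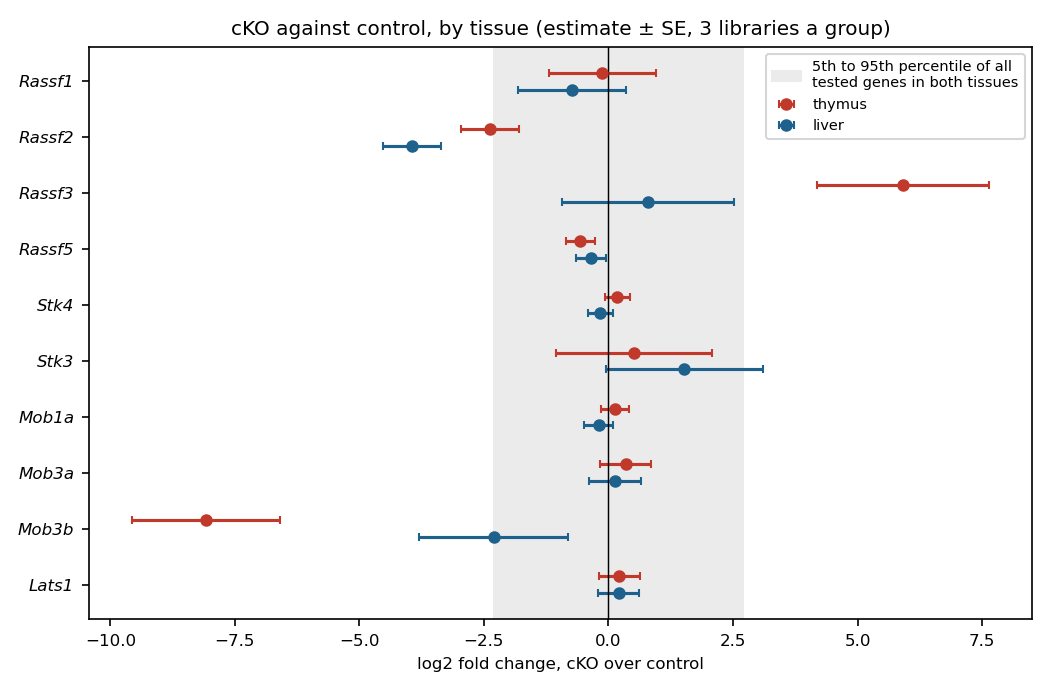
Log2 fold changes of cKO over control (limma estimate ± SE, 3 libraries a group) for the 10 genes in thymus and in liver, over a grey band that spans the 5th to 95th percentile of all tested genes common to both tissues. Rassf2 (-2.38 and -3.94) and Mob3b (-8.08 and -2.31) lay to the left in both tissues, Rassf3 (5.92) lay to the right in thymus, and the rest lay inside the band.

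In thymus, 2 of the 10 genes (Rassf2 and Mob3b) had all cKO libraries below all control libraries and 1 (Rassf3) had them above, beside 6.89% and 7.6% of all tested genes. In liver, 3 (Rassf1, Rassf2 and Mob3b) had them below and none above, beside 8.66% and 9.99% of all genes. At a limma adjusted p under 0.05, Mob3b would count among the called genes in thymus (0.636% of tested genes called, 83 of 13058) and Rassf2 in liver (0.505%, 66 of 13058). Of the thymus calls 41 (0.314%) were higher and 42 (0.322%) lower in cKO cells, and of the liver calls 41 (0.314%) were higher and 25 (0.191%) lower. The thymus calls split 28 and 80 after TMM and 31 and 58 after median-of-ratios rescaling. These counts include the genes for which the set was chosen, so nothing is read from them. The median log2 fold change of the 10 genes was 0.16 in thymus and -0.18 in liver, beside 0.24 and 0.02 over every gene tested.

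Levels can be compared between genes only per length, and are given as deposited value per kb of exon. Over the 12 libraries Mob1a had the highest mean (2239 per kb), followed by Stk4 (2162), Rassf5 (1439), Lats1 (467), Rassf2 (370), Mob3a (304), Rassf1 (104), Mob3b (40.9), Rassf3 (28.9) and Stk3 (26.3). Some neighbours in this order changed places between libraries. Mob1a exceeded Stk4 in 7 of 12 libraries, Rassf2 exceeded Mob3a in 5, and Mob3b exceeded Rassf3, and Rassf3 exceeded Stk3, in 6 each. In cKO cells Rassf2 lay below Mob3a, at 71.9 to 169 against 253 to 441 in thymus and 28.4 to 53.5 against 234 to 342 in liver. In control liver Rassf2 lay above Mob3a (405 to 786 against 244 to 310), and in control thymus they overlapped. Mob3b lay below Rassf3 in cKO thymus (0 to 0.166 against 15.9 to 82.4). It lay above Rassf3 in control thymus (27.4 to 140 against 0.00552 to 1.98), and the liver ranges overlapped. Rassf5 lay above Lats1, and Mob3a above Rassf1, in all 12 libraries. Lats1 exceeded Rassf2 in 8 libraries and Rassf1 exceeded Mob3b in 10. The order differed between groups. Rassf2 was in place 6 of 10 in cKO thymus (114 per kb) and in place 4 in control thymus (753), and in place 8 in cKO liver (37.5) and 4 in control liver (574). Rassf5 was in place 3 in cKO thymus, cKO liver and control liver, but led in control thymus with a mean of 2132 per kb, beside 2112 for Stk4 and 1923 for Mob1a.

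Within the 4 RASSF genes of the set, Rassf5 took the largest share of the summed level per kb in every group. The Rassf2 share was 6.93% ± 2.99 in cKO thymus and 21.5% ± 10.7 in control thymus, and 3.29% ± 0.584 in cKO liver and 29.1% ± 5.27 in control liver (SD, n = 3). The Rassf5 share was 84.9% ± 3.80 in cKO thymus and 73.4% ± 13.6 in control thymus, and 87.5% ± 2.84 in cKO liver and 64.3% ± 3.73 in control liver. A share of this kind is relative, so a lower Rassf2 level raises the Rassf5 share at a given Rassf5 level. Control thymus 1 had a Rassf2 share of 10.4%, near the highest cKO thymus share of 10.02%. Of the MST kinase level, Stk4 made up 98.7% ± 1.36 in cKO thymus, 97.5% ± 3.87 in control thymus, 98.8% ± 0.661 in cKO liver and 99.3% ± 0.874 in control liver. Within Mob1a, Mob3a and Mob3b alone, leaving out the other MOB genes, Mob1a held 84.5% ± 6.51 in cKO thymus, 84.3% ± 5.0 in control thymus, 87.8% ± 3.06 in cKO liver and 88.1% ± 1.83 in control liver. Mob3b was the small remainder, at 0.00279% ± 0.00483 in cKO thymus, 2.99% ± 1.88 in control thymus, 0.499% ± 0.236 in cKO liver and 2.75% ± 2.39 in control liver.

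**Figure D3:**
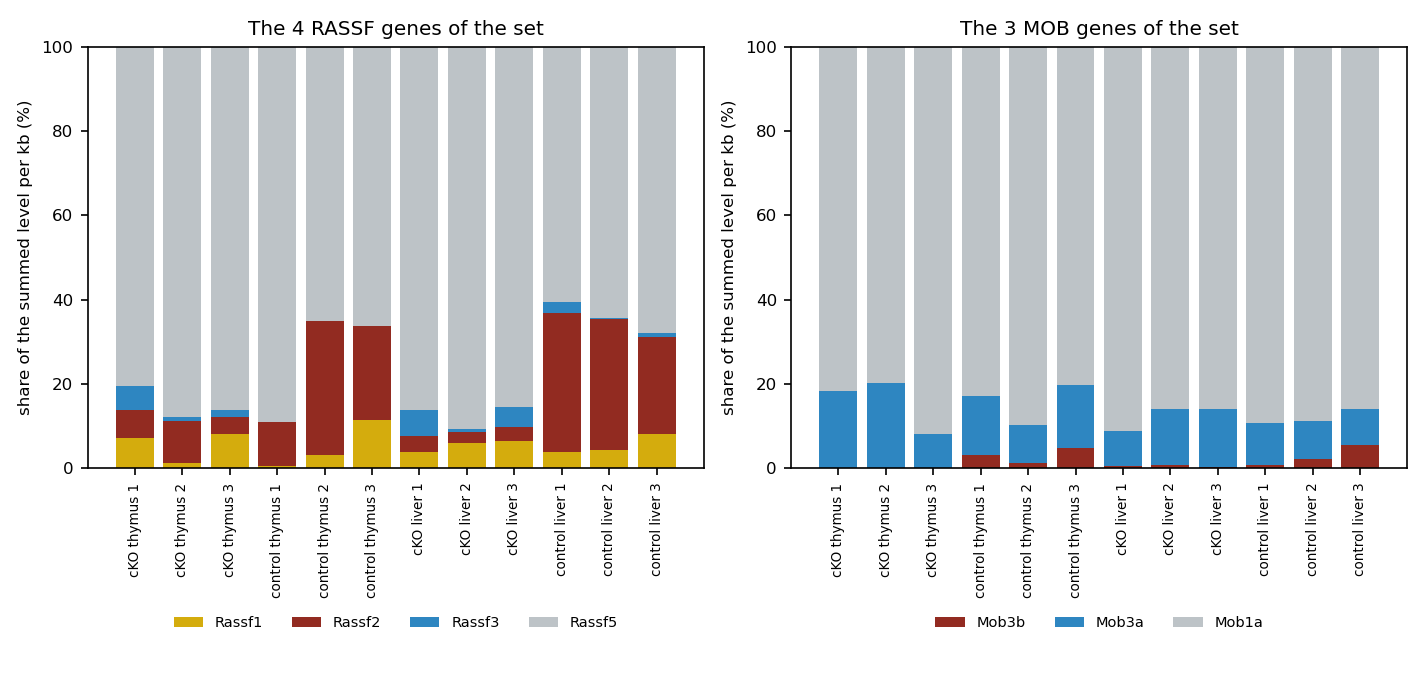
Share of each gene (percent) in the summed level per kb of the 4 RASSF genes (left) and the 3 MOB genes (right) of the set, with 1 stacked bar per library. Rassf2 made up 2.71% to 3.88% of the level of the 4 genes in cKO liver against 23.1% to 33.1% in control liver, and Mob1a made up at least 79.8% of the level of the 3 MOB genes in every library.

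The question of tissue was put to the mean of both genotypes, liver over thymus. No member of the set was called there (0 of 10, limma adjusted p under 0.05), beside 1.39% of tested genes (182 of 13058), 94 higher (0.72%) and 88 lower (0.674%). TMM rescaling gave a split of 76 and 122. At an unadjusted limma p under 0.05, 2 of the 10 members (Rassf5 and Mob3b) passed, beside 1862 of all 13058 tested genes. On recovered reads, edgeR called 0 members, beside 1.07% of all genes, and DESeq2 called 1 (Mob3b), beside 4.78%. Rassf5 had a liver over thymus value of -0.63 ± 0.211 (limma adjusted p = 0.161), with means of 3911 ± 794 in cKO liver and 4976 ± 698 in control liver against 5604 ± 726 in cKO thymus and 8523 ± 2701 in control thymus. The value kept its sign under each of the 21 alternative settings, from -0.78 to -0.52, with adjusted p from 0.0628 to 0.470.

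Mob3b had a liver over thymus log2 fold change of 3.00 ± 1.05 (limma adjusted p = 0.181). That mean joins unlike parts, since liver over thymus was 5.89 ± 1.49 in cKO cells and 0.12 ± 1.49 in control cells. DESeq2 on recovered reads gave an adjusted p of 0.000736, the 1 of 21 settings that called it, in a range of 0.000736 to 0.648. Rassf2 had a value of -0.78 ± 0.414 (adjusted p = 0.404), made of -1.57 ± 0.585 in cKO cells and -0.002 ± 0.585 in control cells. Rassf3 stood at 2.46 ± 1.22 (adjusted p = 0.369), made of -0.10 ± 1.72 in cKO cells and 5.03 ± 1.72 in control cells. The value within 1 genotype includes the groups that chose the genes, so the difference between genotypes was not tested for them. The mean over both genotypes includes those groups too, so nothing beyond description is read from its p-values for Rassf2 and Mob3b.

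The kinase and adaptor genes lay closer to 0 between tissues. Liver over thymus was -0.03 ± 0.180 for Stk4, 0.35 ± 0.200 for Mob1a, -0.21 ± 0.291 for Lats1 and -0.10 ± 0.368 for Mob3a, with limma adjusted p of 0.957, 0.447, 0.795 and 0.938. For Stk3 it was -0.57 ± 1.11 (adjusted p = 0.862) and for Rassf1 0.06 ± 0.765 (adjusted p = 0.984). A standard error near 1 leaves room for changes of several fold in Stk3 and Rassf1, and a p above the threshold does not show equal levels. The sum of 4 hepatocyte markers was 714 to 1633 in liver libraries and 0 to 442 in thymus libraries, and its part in the tissue differences was not tested.

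**Figure D4:**
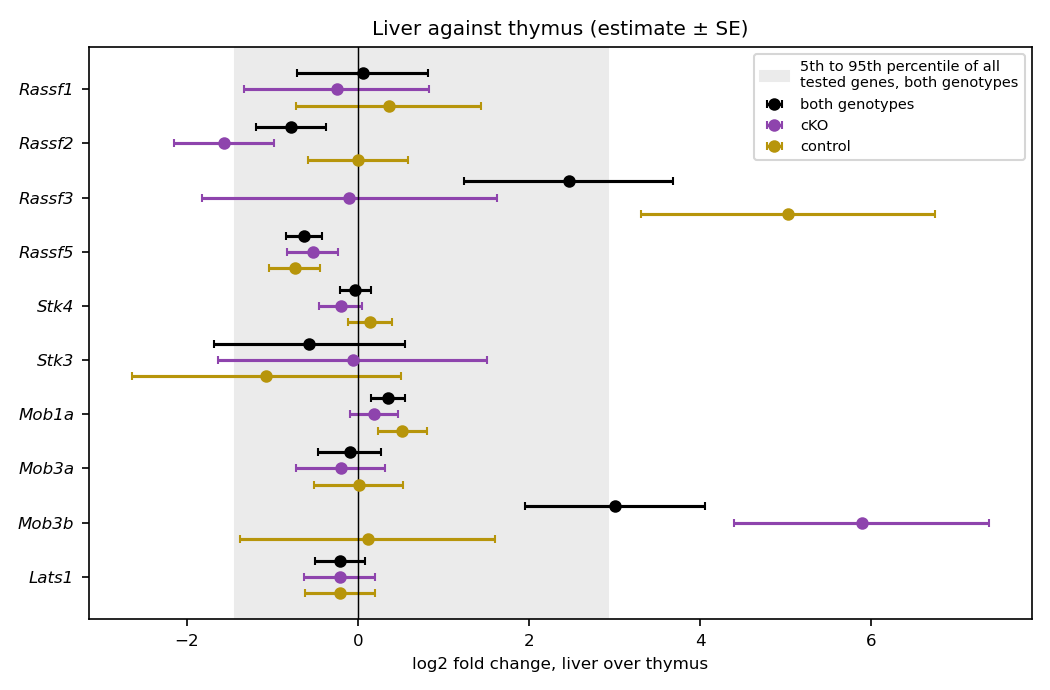
Log2 fold changes of liver over thymus (limma estimate ± SE) for the 10 genes, over both genotypes (6 against 6 libraries), in cKO cells and in control cells (3 against 3), with the 5th to 95th percentile of all tested genes in grey. Mob3b lay at 5.89 in cKO and 0.12 in control cells, Rassf3 at -0.10 and 5.03, and Mob1a at 0.19 and 0.52. Stk4, Mob3a and Lats1 lay near 0 in both.

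Across the 12 libraries the genes most like Rassf2 were found by the root mean square difference of log2(value + 1) after centring each gene, among 10482 tested genes with a symbol and a mean of at least 50. They were Atp2b4, a plasma membrane calcium pump (0.88), Lpar6, a receptor for lysophosphatidic acid (0.93), Gpr132, a receptor that senses lipids and protons (0.95), Ifi213, an interferon-inducible gene (0.97), and Msra, a methionine sulfoxide reductase (1.004), on a scale where Rassf2 itself varied by 1.82. Atp2b4 averaged 582 in cKO thymus, 2872 in control thymus, 119 in cKO liver and 3573 in control liver. For Mob3b the nearest were Cfap54, a ciliary protein gene (1.28), Clec2i, a C-type lectin (1.65), Cd38, an NAD-consuming ectoenzyme (1.86), Prf1, which encodes perforin (1.92), and Myo6, an unconventional myosin (1.93), against a variation of 3.44 in Mob3b. Cfap54 averaged 0.819 in cKO thymus, 577 in control thymus, 241 in cKO liver and 875 in control liver. Rassf2 and Mob3b were 3.09 apart, further than either was from its nearest genes. The distance to Ets1 was 0.80 for Rassf5, 1.02 for Stk4, 1.07 for Rassf2, 1.11 for Mob1a and Mob3a, 1.21 for Lats1, 1.54 for Rassf1, 2.15 for Stk3, 3.09 for Mob3b and 3.497 for Rassf3. The distance to Ets1 also depends on how much each gene varied. A gene that varied little can have a small distance without following Ets1, so this order does not rank likeness to Ets1. Stk4, for example, overlapped between genotypes in both tissues, while all Rassf2 cKO libraries lay below the controls in both. All these distances come from 12 libraries that share a design and carry no test.

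The wider pathway was read from 10 lists of 91 genes outside the set, of which 74 were tested. In thymus 0 were called higher and 2 lower in cKO cells, in liver 1 higher and 1 lower, and between tissues 1 higher and 1 lower in liver. Each is 2.70% of the genes tested, from 2 genes, beside 0.636%, 0.505% and 1.39% of all tested genes. The lists were chosen with earlier results of these data known, so nothing is read from this share. The median log2 fold change of the 74 was 0.08 in thymus, 0.12 in liver and -0.09 between tissues. Of the YAP and TEAD list only Tead2 and Vgll4 were tested, and Yap1, Wwtr1, Tead1, Tead3 and Tead4 were not analysed here. The lists of other RASSF genes, other Hippo regulators, YAP and TEAD genes, other MOB genes and NDR kinases, other germinal centre kinases, STRIPAK subunits and Ras and Rap GTPases held no called gene in any of the 3 comparisons, of 2, 7, 2, 6, 12, 9 and 11 tested. Of the 49 genes in these 7 lists, 6 passed an unadjusted limma p under 0.05 in thymus, 5 in liver and 4 between tissues. Of all 13058 tested genes, 1728, 904 and 1862 passed in the same order. On recovered reads edgeR called 0 of the 49 in each comparison, and DESeq2 called 1 in thymus (Sike1), 2 in liver (Lats2 and Map4k2) and 3 between tissues (Lats2, Sike1 and Rap2a). Over all genes edgeR called 0.391% in thymus and 0.299% in liver, and DESeq2 called 5.13% and 2.17%.

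The kinases next to the set were not called by limma. Lats2, a close relative of Lats1, had values of 479, 421 and 418 in cKO liver, against 1125, 2327 and 1629 in control liver, with no overlap and -1.88 on the log2 scale (limma adjusted p = 0.0967). In thymus Lats2 had values of 839, 1838 and 938 in cKO cells, against 2878, 3345 and 2089.5 in control cells, also without overlap (-1.27, adjusted p = 0.271). Stk38, an NDR kinase that MOB1 activates, had log2 fold changes of -0.21 in thymus and 0.52 in liver, and Mob3c, the remaining MOB3 gene, had -1.20 in thymus and 0.44 in liver. Limd1, Vgll4, Taok1, Stk10, Ppp2ca and Fgfr1op2 were, with Stk38, among the highest genes of their lists. Without Stk38, they lay between -0.60 and 0.24 in thymus and between -0.10 and 0.33 in liver. The weakly expressed Tead2, Rassf7 and Rassf4 had log2 fold changes of 2.75, 1.58 and -0.93 in thymus and of 1.92, -0.39 and -1.59 in liver, none of them called.

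The limma calls lay in the lists of Rap exchange factors and GAPs, of adhesion partners and of the FOXO axis. Rapgef6, an exchange factor that loads Rap GTPases with GTP, had values of 8054, 6484 and 7228 in cKO liver, against 18289.9, 15156 and 16728 in control liver, and fell by 1.21 on the log2 scale (limma adjusted p = 0.00672). The call was lost without cKO liver 2 (adjusted p = 0.0724) and without both libraries of under 5 M reads (0.264), in a range of 1.33e-05 to 0.264 over 22 settings. In thymus Rapgef6 had values of 12400.3, 10878 and 11839 in cKO cells and 21390.5, 23488 and 18865 in control cells, which did not overlap but missed the threshold (-0.86, adjusted p = 0.0627). Rasgrp2, which also activates Rap1, had values of 299.7, 0 and 19.1 in cKO thymus and 4273, 3871 and 582 in control thymus, and fell by 6.87 on the log2 scale (limma adjusted p = 0.0426). That call was kept in 7 of 22 settings and lost on leaving out any library but cKO thymus 1 or control thymus 3 (adjusted p from 0.0101 to 0.565 over all settings). Sipa1 and Rapgef1, a GTPase activator and an exchange factor for Rap1, had log2 fold changes of 0.08 and -0.58, and 1.48 and -0.14, in thymus and liver. In that list edgeR on recovered reads called 0 genes in thymus and 1 (Rapgef6) in liver. DESeq2 called Rapgef4, Rapgef6, Rasgrp2 and Sipa1l1 in thymus, with limma values of -7.40, -0.86, -6.87 and 1.21. In liver DESeq2 called Rapgef6, Rap1gap2 and Rasa3, with limma values of -1.21, 6.02 and 2.14, so the list held values of both signs.

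The GTPases Rap1b and Rap2c had log2 fold changes of 0.34 and 0.71, and 0.81 and 0.10, in thymus and liver, with no call. Itgb2, the beta chain of LFA-1, had values of 32716, 31480.2 and 27659 in cKO liver and 21233, 21252 and 19448 in control liver, against 18807, 18560.3 and 15292 in cKO thymus and 17178, 13524 and 17179 in control thymus. All 6 liver libraries lay above all 6 thymus libraries, and the gene rose in liver by 0.59 on the log2 scale (limma adjusted p = 0.0253). The call was lost under TMM (0.123) and in 11 more of 21 settings, which include leaving out cKO thymus 3 or any 1 liver library (range 0.00566 to 0.178). Itgal, the alpha chain, had a liver over thymus value of 0.47 (adjusted p = 0.115), and Dock2, a guanine nucleotide exchange factor for Rac, had 0.30 (adjusted p = 0.406).

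In the FOXO list, Il7r, the interleukin-7 receptor gene, fell in cKO thymus by 1.80 on the log2 scale (limma adjusted p = 0.0119) and was lower in liver than in thymus (-2.66, adjusted p = 3.09e-06). The thymus call was lost in 4 of 22 settings, namely without cKO thymus 1 (0.0634), cKO thymus 3 (0.0794) or control thymus 2 (0.058), and without control thymus 1 and 2 together (0.467). S1pr1, the receptor that lets T cells leave tissues along a sphingosine-1-phosphate gradient, rose in cKO liver by 3.53 (adjusted p = 0.00672), and lost the call without cKO liver 1 (0.0836) and without both low-depth libraries (0.175). The transcription factors of that list, Foxo1 and Foxo3, which MST1 is known to phosphorylate, had log2 fold changes of -0.14 and -0.003, and -0.77 and 0.34, in thymus and liver, with no call.

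**Figure D5:**
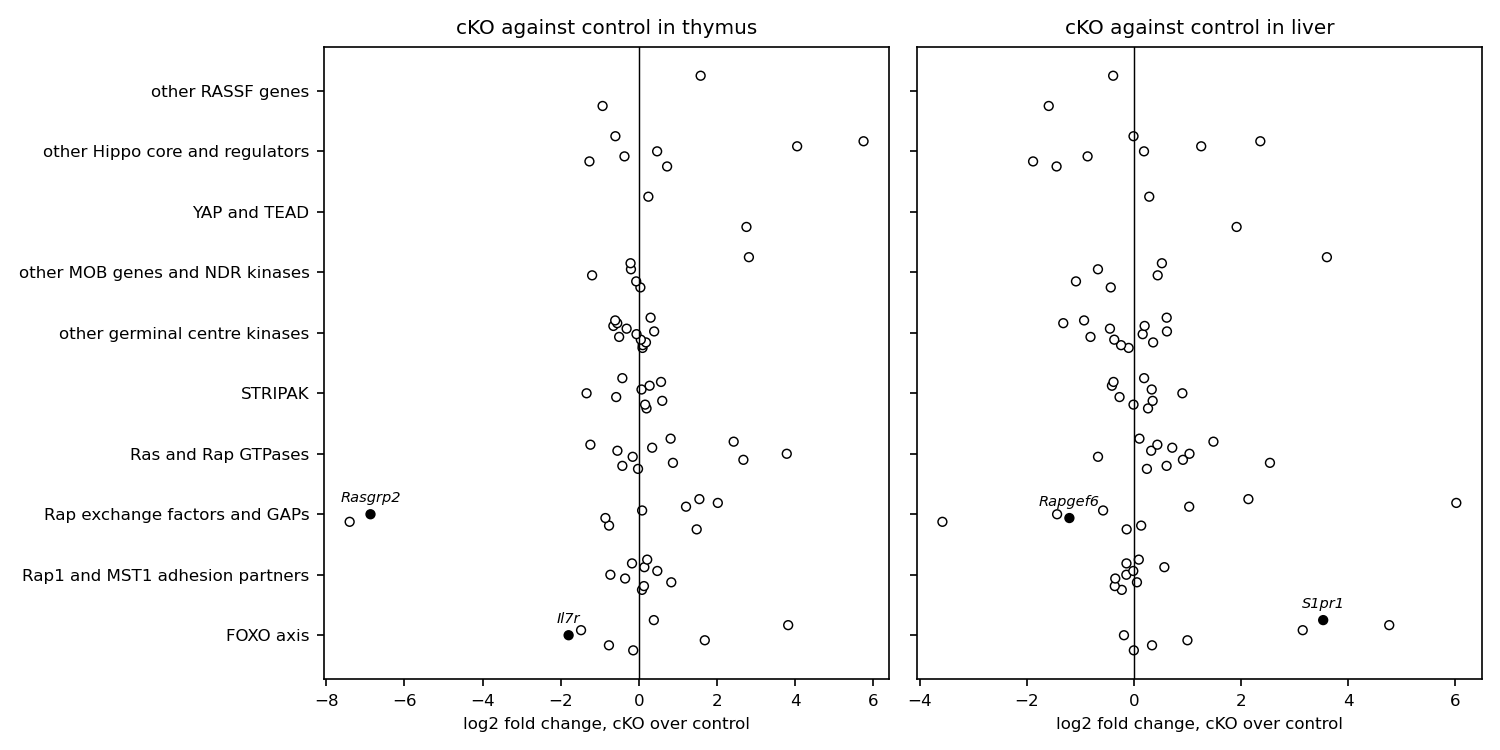
Log2 fold changes of cKO over control in thymus (left) and liver (right) for the 74 tested genes of the 10 lists; each point is a gene, and filled points with names are genes called at a limma adjusted p under 0.05. Rasgrp2 (-6.87) and Il7r (-1.80) were called in thymus, and Rapgef6 (-1.21) and S1pr1 (3.53) in liver.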

How the data were processed

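The deposited table holds a signal adjusted for library size, for 14004 Ensembl genes in 12 libraries. The submitters' processing notes name the build mm10 and, without roles, HTSeq 0.6.1, DESeq2, STAR, TopHat2 2.1.0 and Trimmomatic 0.33. Per the labels' protocols, RNA was isolated with RNeasy kits and libraries were made with the Ovation Ultralow system. The sources used here do not say whether counting used strand.

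The values are not whole counts, so limma 3.58.1 (R 4.3.3) on log2(value + 1) replaced the count test foreseen for whole counts. The model had 4 group means and a variance trend, with Benjamini-Hochberg adjustment and a threshold of 0.05. A gene needed a value of 10 or more in 3 or more libraries, which 946 genes did not reach. Inverting a negative binomial adjustment to a common library size, inferred from the values, placed 95.3% of values (90.3% to 98.7% per library) within 0.1 of a whole read. Those reads were used for depth, ratios, edgeR 4.0.16 and DESeq2 1.42.0. Symbols (13359 identifiers), positions and exon lengths came from a GRCm38 annotation, and upstream sequences from RefSeq. The script was tested on simulated data.

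The 10 genes, the lists and the naming rule were chosen with earlier results of these data known. The rule named the set, called genes of each list (up to 4) with 2 others of highest mean, and the 5 genes most like Rassf2 and Mob3b. Values of Lats2, and the genes that DESeq2 alone called, were picked out after they were seen.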

Additional observations from a re-analysis of the deposited data

How the results depend on the processing

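The counts of called genes moved with the processing. For liver over thymus the 182 calls became 60 without cKO liver 2 and control liver 3, the libraries with under 5 M reads (M, 1e6), 599 with DESeq2, and 96 to 312 on leaving out 1 library at a time. For cKO over control in thymus the 83 calls became 129 with a pseudocount of 10, 3 with only the libraries of that tissue, 4 without control thymus 1 and 2, 25 without the low-depth pair, 51 with edgeR, 619 with DESeq2 and 21 to 542 on leaving out 1 library. In liver the 66 calls became 104, 295, 216, 9, 39, 272 and 19 to 126 in the same order. The cause was not tested. The 2 settings that leave out a pair of libraries were chosen after seeing the data. The sources used here do not say whether the labels' replicate numbers pair the samples. Correlations of deviations between groups at the same number lay between -0.0958 and 0.0803, which cannot decide it. A replicate block gave 182 calls between tissues, 81 in thymus and 71 in liver.

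Rassf2 and Mob3b, whose direction the choice of genes fixes, had negative genotype values in all 22 settings in both tissues, from -3.20 to -1.71 and from -10.44 to -5.10 in thymus and from -4.23 to -3.69 and from -3.06 to -1.64 in liver. Between tissues, uncalled values near 0 changed sign. Rassf1 (0.06) became -0.086 under TMM, -0.018 under median of ratios, -1.05 without control thymus 1 and 2, -0.10 without the low-depth pair, -0.68 with edgeR, -0.67 with DESeq2 and -0.72 to 0.61 on leaving out 1 library. Stk4 (-0.03) became 0.051 without the low-depth pair and Stk3 (-0.57) 0.079 without control thymus 1 and 2. Leaving out 1 library gave -0.19 to 0.057 for Stk4, -1.15 to 0.096 for Stk3, -0.21 to 0.071 for Mob3a and -0.43 to 0.0078 for Lats1. Depth limits Mob3b, Rassf3 and Stk3, with 17, 4 and 31 reads in cKO liver 2.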
